A study of Danio rerio with 40 samples.

Results

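Among 40 single cells sorted from zebrafish ventricles by a tcf21 reporter, 3 held fewer than 5 expected reads of tcf21 itself, and those 3 cells are described here against the other 37. They are the libraries KP7 and KP33, in which cardiac contractile genes were high, and KP11, in which genes of antigen presentation and other macrophage genes were high. They were chosen by their tcf21 reads, so the tcf21 values are the selection and not a result. The muscle and macrophage names had also been attached to the cells from their expression before these values were computed, so everything below is a description of chosen cells and no test was run.

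All 40 libraries share 1 origin. The labels give ventricles of adult tcf21:nucEGFP fish of the EK strain, 6 months old, digested with Liberase DH at 37 °C while being stirred, and cells sorted as EGFP-positive and propidium iodide-negative. Propidium iodide is a dye that enters dead cells, and EGFP is a green fluorescent protein that the tcf21 reporter directs to the nucleus. Single cells were captured and their libraries built on the Fluidigm C1, a microfluidic device with separate chambers. The labels name no animal, injury, treatment or batch for any cell, so the cells count as 1 sample and differences between cells have no replicate of fish behind them.

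The epicardium is the cell layer that covers the heart, and tcf21 is a transcription factor gene used to mark it and the fibroblasts derived from it. Cardiomyocytes contract through sarcomeres, in which myosin thick filaments slide along actin thin filaments between Z discs, and they draw most of their ATP from mitochondria. Macrophages are phagocytic immune cells that reside in the heart, clear debris through lysosomes and present peptides on MHC class II molecules. The labels call every sorted cell epicardial, and both of these cell types differ from that label.

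tcf21 (ENSDARG00000036869) had 2 expected reads in KP7, with an exact Poisson 95% interval of 0.242 to 7.22. It had 2 expected reads in KP11 and 3 in KP33, with an interval of 0.619 to 8.77 in KP33. Scaled to counts per 1e+06 reads of the cell (CPM), these counts were 2.38, 0.603 and 1.01 CPM. The nearest cell outside the choice was KP1 with 6 reads, followed by KP29 with 51 and KP20 with 99. The threshold of 5 reads thus separated KP33 from KP1 by 3 reads, and the Poisson interval of KP1, 2.202 to 13.06 reads, included it. No cell had 0 tcf21 reads.

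KP1 also stood apart in quality: it had 161 genes detected, at 5 or more expected reads each, and 97.2% of its reads lay on 10 genes. The 3 chosen cells were not of that kind. KP7 had 839855 expected reads and 1203 genes detected, KP33 had 2.97e+06 reads and 746 genes, and KP11 had 3.32e+06 reads and 2143 genes. The other 37 ranged from 340293 to 5.70e+06 reads with a median of 3.04e+06, and from 161 to 10792 genes with a median of 2174. The 10 leading genes took 47.2% of reads in KP7, 53.5% in KP33 and 33.5% in KP11, against a median of 21.9% in the 37. Reads of mitochondrial genes made 1.99%, 4.29% and 1.79% of the 3 libraries, against a median of 2.003% and a highest value of 47.6% in the 37. KP33 and KP7 therefore concentrated their reads on few genes. The mitochondrial share of KP7 lay near the median, and that of KP33 lay above it, with 25 of the 37 cells below.

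The marker lists restate the choice in part, since they hold the genes by which the cells had been named: MYL7, actc1a and ckma alone took 14.6% of the reads of KP7 and 14.8% of those of KP33, and cd74a, mhc2dab and c1qb took 2.80% of those of KP11. The usual markers vmhc of ventricular muscle and mpeg1.1 and csf1ra of macrophages were not matched by name and are not analysed here. The 16 cardiomyocyte genes measured took 18.17% of the reads of KP7 (exact binomial 95% interval 18.08 to 18.25) and 18.01% of those of KP33 (17.97 to 18.06). In KP11 they took 6.03e-05%, and in the other 37 cells they ran from 0 to 0.957% with a median of 0.00359%, the highest being KP18. KP7 and KP33 lay above all of these cells. At 5 or more reads, KP7 had 9 of the 16 markers and KP33 had 10. The defining markers nppa and nppb, which encode natriuretic peptides, were at 0 in both cells, as were myh6 and a copy named TNNI1. MYBPC3, tnnc1a, RYR2 and SMPX were at 0 in one or the other.

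The 20 macrophage genes measured took 3.33% of the reads of KP11 (3.31 to 3.35). They took 0.000474% in KP7 and none in KP33, where a count of 0 bounds the share at 0.000124%. In the 37 their share had a median of 0 and a highest value of 0.133%, in KP40. KP11 had 12 of the 20 markers at 5 or more reads, while marco, tyrobp, 5 of the 6 copies named MFAP4 and the copy named SPI1 were at 0. The 4 dendritic cell markers measured (flt3, BATF3, ZBTB46, CCR7), 6 of lymphocytes and 4 of neutrophils were at 0 in KP11. Longer lists were not at 0. The lymphocyte list took 0.0919% of the reads of KP11, above the highest of the 37 at 0.0663%. It had 2 genes detected in KP11, and RUNX3 made nearly all of its reads. The neutrophil list took 0.0904%, with 1 gene detected, against a median of 0.0223% and a highest value of 0.320%. The 7 skeletal muscle markers measured were at 0 in all 3 cells. Outside them, TNNI2 ENSDARG00000005841, named for a skeletal muscle troponin, stood at 339 CPM in KP7 and 0.434 CPM in KP33. On a longer list of skeletal muscle genes, KP11 had 1 gene at 5 or more reads.

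Fibroblast markers took 0.0118% of reads in KP7, 0.0238% in KP33 and 0.00338% in KP11, against a median of 1.51% and a range of 0.00475% to 4.10% in the 37. Epicardial markers, among them tcf21 itself, took 0.00393%, 0.00161% and 0.0101%, against 0.0146% to 4.32% with a median of 0.419%. With tcf21 counted, all 3 cells lay below every other cell on these 12 epicardial markers. For KP11 this order rested on tcf21, the gene that chose the cells. KP12, the lowest of the 37 at 0.0146%, had 98.1 CPM of tcf21, and without that gene KP11 would lie above it. KP11 lay below every other cell on the fibroblast markers too. On a longer list of 25 epicardial genes considered, which also holds tcf21, KP7 and KP33 again lay below all 37. KP11 took 0.690% of its reads there, above 4 of the 37.

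**Figure D1:**
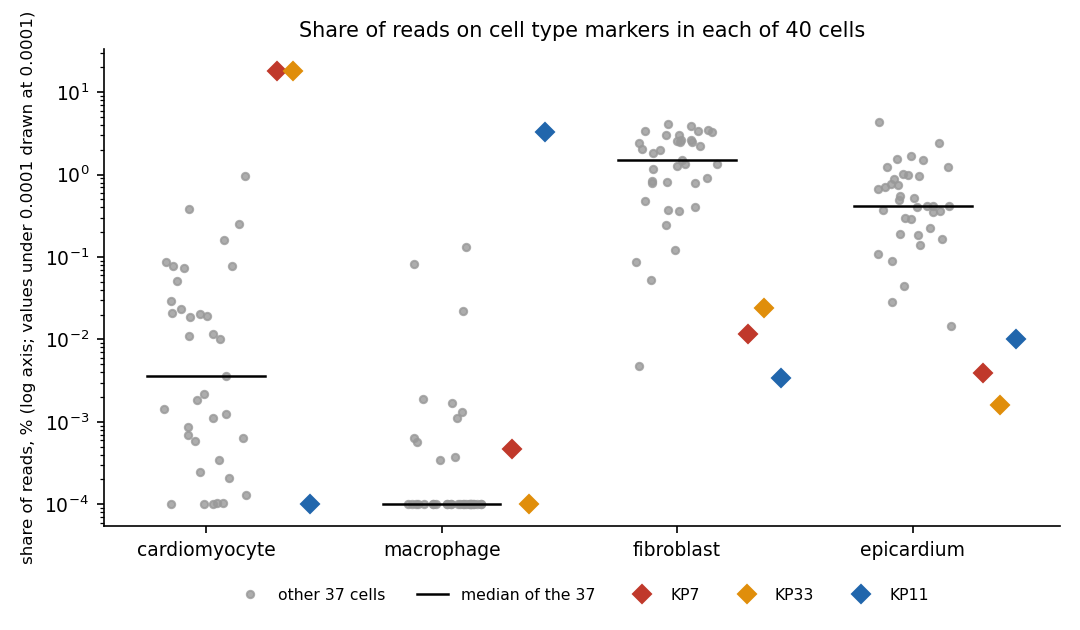
Share of reads, in % on a log axis, on the marker lists of 4 cell types in each of the 40 cells; grey points are the other 37 cells, the bar is their median, diamonds are KP7, KP33 and KP11, and shares under 0.0001 are drawn at 0.0001. KP7 and KP33 sit near 18% for cardiomyocyte markers and KP11 sits at 3.33% for macrophage markers, each above all 37.

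Genes were then compared one by one. A gene was called higher in KP7 and KP33 if each cell had at least 5 reads and the lower of both was at least 10-fold above the mean of the 37, on CPM + 10. It was called lower if the mean of the 37 was at least 10-fold above the higher of both. That mean can rest on few cells. LDLRAD4, called lower in KP7 and KP33 and in KP11, had a mean of 1723 CPM and a median of 3.22 CPM in the 37, with 50425 CPM in KP17. For krt4 these were 1123 and 4.05 CPM. A lower call thus does not show that most of the 37 read the gene strongly. Of 15147 genes with 5 reads in any cell, 32 were higher in KP7 and KP33, which is 0.211%, and 1007 were lower, which is 6.65%. Taken alone, KP7 had 130 genes higher (0.858%) and 1121 lower (7.4%), and KP33 had 136 higher (0.898%) and 1145 lower (7.56%). In KP11, 360 genes were higher (2.38%) and 892 lower (5.89%). Another scaling used median-of-ratios size factors, which rest on the 163 genes read in all 40 cells. It raised the totals of KP7 and KP33 by 2.71 and 2.73 log2 units against CPM and lowered that of KP11 by 1.79. These shifts are set by the mean total of all 40 cells on that scaling. They do not give the direction in which a cell moved relative to the 37. On that scaling the split was 82 higher and 77 lower for KP7 and KP33 (51.6% higher against 3.08% on CPM) and 272 higher and 174 lower for KP11 (61% against 28.8%). All 32 genes higher in KP7 and KP33 were also called on that scaling, and 244 of the 360 in KP11. The 163 genes include tcf21 and genes called lower on CPM, among them FOS, HSPA2, hsp70.1, egr1, JUNB, MYC and FN1 ENSDARG00000006526. That scaling therefore cannot decide whether such genes are lower.

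The 32 genes shared by KP7 and KP33 held 56.9% of the reads of KP7 and 49.0% of those of KP33. The same genes held a median of 0.488% and at most 3.42% of the reads of another cell. Another view asks for genes above every one of the 37 with no fold. It was met by 35 genes in both cells (0.231%), among them 31 of the 32, the exception being atp5mea. Of the 32, 29 have a symbol and 24 are members of the contractile, energy and mitochondrial lists. Counts on the lists below stand beside the shares over all genes considered, 0.211% higher and 6.65% lower. CPM is a share of reads and gene lengths were not used, so values compare cells for 1 gene and not genes with each other.

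The thick filament genes came first. MYL7 (ENSDARG00000019096), a cardiac myosin light chain, stood at 57857 CPM in KP7 and 85881 CPM in KP33. It was at 0 in KP11, and the 37 ran from 0 to 2224 CPM (KP27) with a median of 0.272. Both cells were thus above all others, 380-fold and 564-fold over the mean of the 37. MYH7 (ENSDARG00000079782), named for a myosin heavy chain, stood at 72880 CPM in KP7 and 33131 CPM in KP33, against at most 5494 CPM, in KP18. cmlc1, another cardiac myosin light chain, stood at 13572 and 6292 CPM, against at most 766 CPM, again in KP18. Of 5 thick filament genes considered, 3 were higher in both cells.

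A further myosin heavy chain copy, ENSDARG00000079564 with the symbol MYH6, was looked up after its values were seen. It had 82.8 CPM in KP7 and 1543 CPM in KP33, against at most 62.1 CPM in the 37, so the pair differed widely in it. The copy whose symbol is written myh6 was at 0 in all 40 cells. Symbols of close myosin copies were taken from a name table, so no atrial or ventricular origin was read from them.

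On the thin filament, 5 of 16 genes considered were higher in both cells. actc1a (ENSDARG00000042535), a cardiac actin, stood at 80656 CPM in KP7 and 51486 CPM in KP33, while KP11 had none and the highest of the 37, KP18, had 5259. The actin copy actc1c stood at 20462 and 3545 CPM, against at most 1140 CPM. TNNT2, the cardiac troponin that binds tropomyosin, stood at 5449 CPM in KP7 and 10359 CPM in KP33, against at most 705 CPM. The inhibitory troponin TNNI1 (ENSDARG00000052708) stood at 1191 and 1637 CPM, against at most 25.1, and the tropomyosin tpm4a at 11288 and 9701 CPM, against at most 826. All 5 were above every other cell in both KP7 and KP33. Another copy named TNNI1 had no read in either cell. Close actin copies share sequence, so the division of reads among them is uncertain.

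Titin is the spring protein that spans the sarcomere, and the table has 2 genes with that symbol. TTN ENSDARG00000028213 stood at 7162 CPM in KP7 and 2213 CPM in KP33, and in the 37 it did not pass 1.43 CPM. TTN ENSDARG00000000563 stood at 14205 CPM in KP7 and at 0.336 CPM, a single read, in KP33. The first copy was thus shared and the second was read in KP7 and hardly at all in KP33. The Z disc gene actn2b, an alpha-actinin, showed the opposite order, with no read in KP7 and 9827 CPM in KP33. SMPX, a small muscle protein, likewise had none in KP7 and 1084 CPM in KP33. Of 27 genes of the Z disc, titin and the intercalated disc considered, 1 was higher in both cells and 2, CDH2 and PDLIM5, were lower. The lower count was near the 6.65% over all genes.

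For calcium handling, 1 of 16 genes considered was higher in both and 1, camk2d1, was lower, the latter near the 6.65% over all genes. atp2a2a, the pump that returns calcium to the sarcoplasmic reticulum, stood at 4249 CPM in KP7 and 2686 CPM in KP33, against at most 209 CPM in the 37. SLC8A1, the sodium-calcium exchanger, had no read in KP7 and 398 CPM in KP33. Among genes that buffer energy and oxygen, 3 of 14 considered were higher in both and 2, SLC25A3 and CKB, were lower. ckma, a muscle creatine kinase, stood at 7316 CPM in KP7 and 10967 CPM in KP33, against at most 280 CPM. Myoglobin, mb, stood at 15104 and 5408 CPM, against at most 2995 CPM. SLC25A5, a mitochondrial carrier that exchanges ADP for ATP, stood at 43794 CPM in KP7 and 35777 CPM in KP33. It was read in every cell, with a median of 2802 and a highest value of 10980 CPM in the 37, so its 13.2-fold and 10.8-fold excess were near the threshold. FABP3, a fatty acid carrier, stood at 4582 CPM in KP7 and 133 CPM in KP33, and the mitochondrial creatine kinase CKMT2 at 0 and 2852 CPM.

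Cardiac transcription factors and natriuretic peptides did not share in this. Of 15 considered, none was higher in both cells and 1, HAND2, was lower, with no read in either. The lower count was near the 6.65% over all genes. The list took 0.00131% of the reads of KP7 and 3.36e-05% of those of KP33, the latter a single read. In the 37 the median was 0.00315% and the highest value 0.307%, so as a share both cells lay below the median. On median-of-ratios scaling no member was lower in both cells. The summed list of KP7 then stood above that of 35 of the 37 and that of KP33 above 15, so only KP33 stayed below the median.

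**Figure D2:**
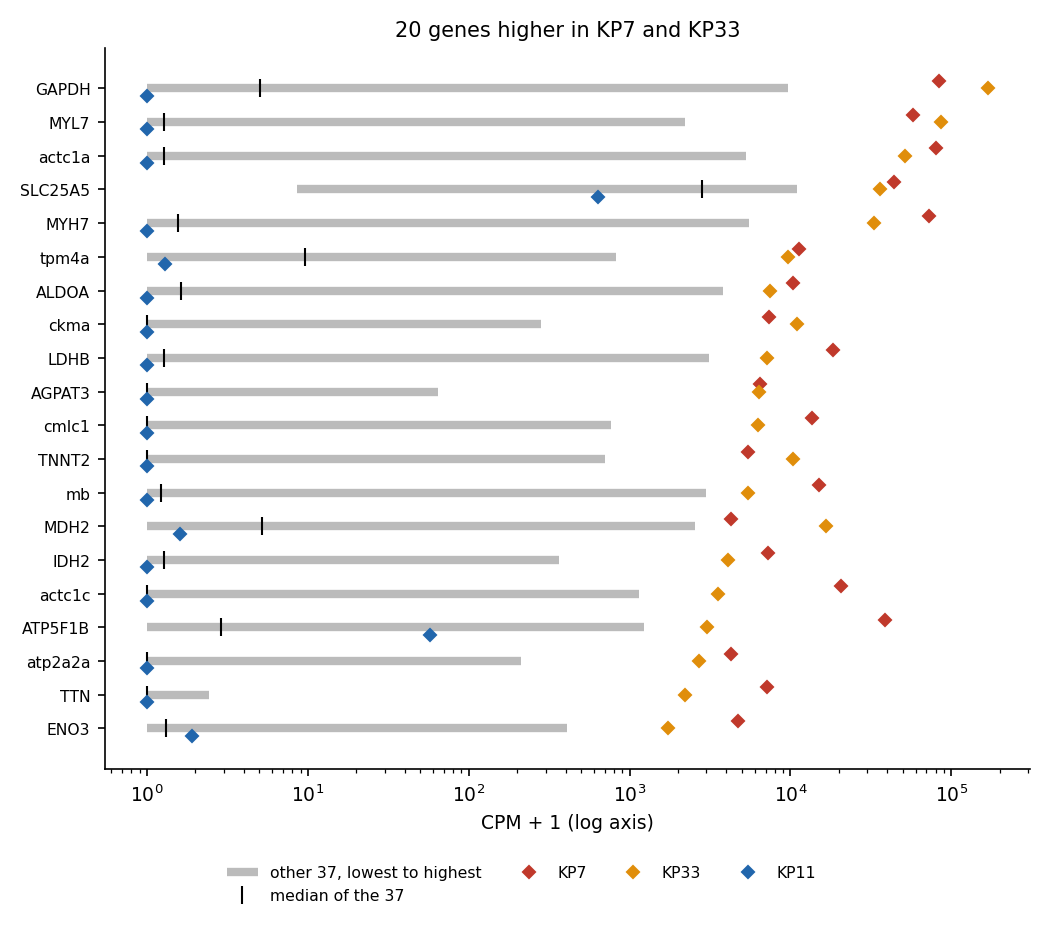
CPM + 1 on a log axis for the 20 genes with a symbol that had the highest level in the lower of KP7 and KP33; diamonds are the 3 chosen cells, the grey bar runs from the lowest to the highest of the other 37 and the tick is their median. For all 20 genes KP7 and KP33 lie to the right of the bar, and KP11 has no read of 15 of them.

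Glycolytic genes took 12.4% of the reads of KP7 and 19.1% of those of KP33, against 0.115% in KP11 and at most 1.06% in the 37. GAPDH made most of this, at 84315 CPM in KP7 and 168235 CPM in KP33, while KP11 had none. GAPDH is often taken as a constant reference, but the other 37 cells ranged from 0 to 9683 CPM with a median of 4.07. ALDOA ENSDARG00000011665, an aldolase, stood at 10354 and 7440 CPM, and LDHB, a lactate dehydrogenase subunit, at 18341 and 7120 CPM. ENO3, an enolase of muscle, stood at 4746 CPM in KP7 and 1722 CPM in KP33. Its relative ENO1 stood at 4833 CPM in KP7 with no read in KP33, whereas TPI1, triosephosphate isomerase, stood at 145 CPM in KP7 and 5001 CPM in KP33. Of 15 glycolytic genes considered, 5 were higher in both cells and 3 were lower, ALDOC, GAPDHS and GPI.

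The citric acid cycle showed the same mixture. MDH2, malate dehydrogenase of mitochondria, stood at 4287 CPM in KP7 and 16609 CPM in KP33, and IDH2, an isocitrate dehydrogenase, at 7252 and 4108 CPM. Both were above every other cell. SDHA, a subunit of succinate dehydrogenase, had 20431 CPM in KP7 and 1.01 CPM in KP33. Of 32 list members considered, MDH2 and IDH2 were the 2 higher in both cells, and 2, got2b and ACSL1, were lower. The lower count was near the 6.65% over all genes.

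Nuclear genes of oxidative phosphorylation took 8.005% of the reads of KP7 and 3.72% of those of KP33, against 0.424% in KP11 and a range of 0.000218% to 0.661% in the 37. Of 65 such genes considered, 4 were higher in both: ATP5F1A, ATP5F1B, cox7a1 and COX5B ENSDARG00000068738. ATP5F1B, the catalytic subunit of ATP synthase, stood at 38565 CPM in KP7 and 3028 CPM in KP33. Of 34 complex I genes, 8 were detected in KP7 and 12 in KP33, and 3 in both. Of 9 ATP synthase genes, 5 were detected in KP7 and 8 in KP33, with 4 in both, and ATP5F1C had no read in KP7 and 9611 CPM in KP33. Complexes were assigned by the start of the symbol. On that grouping complex I took 1.19% and 1.12% of reads, mostly through different members. It includes ndufa4b, which had no read in KP7 and 2955 CPM in KP33. Placed with complex IV, that gene would lower the complex I total of KP33 and raise its complex IV total. ATP synthase took 6.35% of the reads of KP7 and 1.91% of those of KP33. Complex IV, without ndufa4b, took 0.466% and 0.0975%. Of 8 complex III genes, none was detected in KP7 and 3 in KP33, where they took 0.180% of reads. As a share of all reads, the genes encoded by mitochondrial DNA did not follow. KP7 at 1.99% had 18 of the 37 cells below it, and KP33 at 4.29% had 25. Among reads outside the 32 genes higher in both cells, these genes took 4.62% in KP7 and 8.40% in KP33. Of the 37, 27 and 31 then lay below. On median-of-ratios scaling 32 and 33 of the 37 lay below KP7 and KP33, so their place depended on the scaling.

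The remaining shared genes include AGPAT3, named for an acyltransferase of phospholipid synthesis, at 6420 CPM in KP7 and 6352 CPM in KP33, against at most 63.6 CPM in the 37. HSDL2, COX7A2L, pln1, atp5mea, the ALDOA copy ENSDARG00000034470 and 3 genes without a symbol complete the shared genes. Across the pair these ran from 321 CPM, atp5mea in KP33, to 8807 CPM, ENSDARG00000070395 in KP7. The symbols COX7A2L, pln1 and atp5mea are on none of the lists, so the list counts above leave them out, whatever their role. None of the 32 genes was called higher in KP11. Outside the 32, cox17 lay above all 37 in all 3 cells. It passed the fold in KP7, at 148-fold, and in KP11, at 20.3-fold, and missed it in KP33, at 9.38-fold.

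KP7 and KP33 nonetheless differed in most of what each read strongly. At 100 CPM or more, KP7 had 263 genes and KP33 had 269, and 83 genes were common, which is 31.6% of the first set and 30.9% of the second. Those 83 genes held 66.6% and 68.6% of the reads, so the common part was the abundant part. Within the 83, 29 genes lay within 2-fold of each other and 59 within 5-fold. Common genes made 18.5% of the union, against a median of 17.98% over pairs of the other 37, and against 6.10% for KP7 with KP11. KP7 shared 5.08% to 9.65% with the 37 and KP33 shared 3.96% to 14.5%, so each was closer by this measure to the other than to any of the 37.

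Among genes with a symbol and at 100 CPM or more in 1 of the pair, the 10 largest differences were all near-absences in one cell. The genes without a symbol ENSDARG00000053832 and ENSDARG00000078003, at 18821 and 17632 CPM in KP7 with no read in KP33, differed as widely and are outside that ranking. In KP7 alone stood eif4a1b, a translation initiation helicase, at 26337 CPM, EEF2, a translation elongation factor, at 24422 CPM, and NSD3, a histone methyltransferase, at 22747 CPM. KP33 had 1, 2 and 0 reads of these. smyd2b, a methyltransferase of the SMYD family, at 10711 CPM, and ALDH9A1, an aldehyde dehydrogenase, at 8014 CPM were likewise read in KP7 with at most 1 read in KP33. The others include SDHA and TTN ENSDARG00000000563, high in KP7, and actn2b and ATP5F1C, high in KP33. KP33 was the deeper library, and 1 read was worth 0.336 CPM there and 1.19 CPM in KP7, so levels of this size lay far above the value of a single read in both. What underlies these near-absences was not tested.

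Over the 3117 genes detected in any of the 3 cells, Spearman's rho of KP7 with KP33 was 0.146 and Pearson's r of log2(CPM + 10) was 0.31. KP7 with the 37 had a median rho of 0.345 and a median r of 0.165, so rho was higher with the 37 and r was higher with KP33. KP33 with the 37 had a median rho of 0.354 and a median r of 0.227, and its highest r with one of them, 0.349, was above its r with KP7. Pairs among the 37 had a median rho of 0.559 and a median r of 0.527. The genes were chosen for reads in KP7, KP33 or KP11, and 295 were detected in both KP7 and KP33. Many entered through reads in only some of the 3 cells, which can lower the values among those cells but not those with the 37. The values thus cannot decide which cells KP7 or KP33 is nearer to. These genes share depth and many zeros, and the weak values are given as a description.

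**Figure D3:**
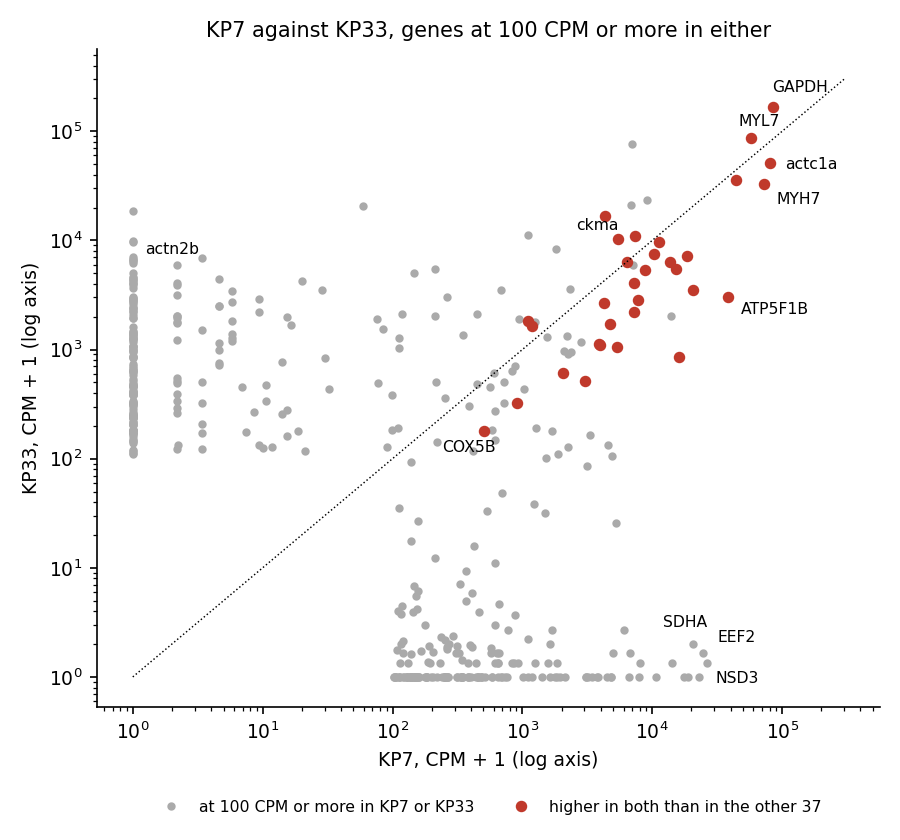
CPM + 1 in KP7 against KP33 on log axes for the 449 genes at 100 CPM or more in either cell; red points are the genes higher in both than in the other 37, grey points all others, and the dotted line marks equal values. Red points run along the line up to GAPDH, while grey points gather along both axes, as actn2b does on the left and SDHA, EEF2 and NSD3 at the bottom.

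The genes lower in KP7 and KP33 were led by immediate early and heat shock genes. FOS, a subunit of the AP-1 transcription factor, stood at 110 CPM in KP7 and 191 CPM in KP33, against 85.0 to 87484 CPM with a median of 27431 in the 37. HSPA2, the symbol of an hsp70 chaperone copy, stood at 90.4 and 68.6 CPM, against a median of 18123, and hsp70.3 at 89.1 and 126 CPM, against 15036. Also among the first 10 with a symbol were hsp70.1, hsp70l, egr1, JUNB, the ubiquitin gene UBB, the actin gene actb2 and the heparan sulfate proteoglycan sdc4. actb2, a cytoplasmic actin, stood at 53.6 and 26.9 CPM, against 13.2 to 30831 CPM with a median of 6411. Below every one of the 37 in both cells lay 5 genes (0.033%): tcf21, which chose the cells, MYC, tmsb4x, RPL35A and HSPA2. tmsb4x, which encodes an actin-sequestering thymosin, had no read in KP7 and 0.673 CPM in KP33, against 2113 CPM in KP11 and a median of 1034 CPM in the 37.

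Immediate early genes, transcribed within minutes of a stimulus, took 0.0670% of the reads of KP7 and 0.0925% of those of KP33, against a median of 5.78% in the 37. Only KP1, at 0.0222%, lay lower, and the next cell, KP34, stood at 0.184%. Of 40 list members considered, 35 were lower in both, among them MYC, FOSB, BTG2 and CSRNP1. Among reads outside the 32 genes higher in both cells, the list took 0.155% in KP7 and 0.181% in KP33, against a median of 5.84%. On median-of-ratios scaling, which rests in part on members such as egr1, JUNB and MYC, 4 of the 40 were lower. The summed list then stood above that of 9 and 19 of the 37 cells.

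Heat shock and chaperone genes took 0.345% of the reads of KP7 and 0.388% of those of KP33, against a median of 6.97% and a range of 0.0387% to 22.04% in the 37, and 4 of the 37 lay lower. Of 26 list members considered, 12 were lower in both and none higher. HSPB1, a small heat shock protein, stood at 27.4 CPM in KP7 and 3533 CPM in KP33, and HSPA4 ENSDARG00000018989 at 3092 CPM in KP7 with no read in KP33. On median-of-ratios scaling 33 and 34 of the 37 lay below KP7 and KP33 on the summed list. The genes on which that scaling rests include hsp70.1, hsp70.3, hsp70l, HSPA2, dnajb1b and HSPA8, so it cannot decide the direction of the list. Members of the longer epicardial list were lower in 17 of 25 cases and fibroblast and matrix members in 18 of 29, which on median-of-ratios scaling became 2 and 1, and on that scaling the summed fibroblast and matrix list of KP33 stood above that of 23 of the 37. For the lower genes the direction thus holds as a share of reads. Median-of-ratios scaling cannot decide it, since lower genes are among those on which it rests.

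The 360 genes higher in KP11 held 43.5% of its reads, against a median of 1.06% and at most 8.20% in another cell. Of these genes 309 have a symbol, 314 lay above every one of the 37, and 45 were detected in none of the 37. Without the fold, 495 genes lay above every one of the 37 (3.27%). Of 163 distinct members of 8 macrophage lists considered, 28 were higher in KP11 and 22 were lower. Over all genes considered, 2.38% were higher in KP11 and 5.89% lower, and the list counts below stand beside these shares. Of the 28, 27 lay above every one of the 37, the exception being cfp, and on median-of-ratios scaling 23 members were called higher. KP7 and KP33 had no read of 23 of the 28. In 10 of the 28 the next cell was KP40, which had 10792 genes detected.

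Antigen presentation led the lists. cd74a (ENSDARG00000009087), the invariant chain that escorts MHC class II molecules, stood at 18914 CPM in KP11 with an exact Poisson interval of 18766 to 19063. KP7 and KP33 had no read, and the 37 had a median of 0 and a highest value of 820 CPM, in KP34. mhc2dab, an MHC class II beta chain, stood at 7875 CPM, against at most 159 CPM in KP40. Its companion cd74b stood at 2523 CPM and the cathepsin ctss2.1 at 384 CPM. Of 6 genes of class II presentation considered, 4 were higher, and together the list took 2.97% of the reads, against at most 0.082% in the 37. Of 17 genes of class I presentation and the proteasome, 2 were higher, mhc1uba at 129 CPM and the chaperone CANX at 3615 CPM. In the same list 1 was lower, not above the 5.89% over all genes, and mhc1zba at 2302 CPM lay inside the range of the 37, which reached 4506 CPM. By summed reads, KP11 lay above all 37 on the class II list and on the leukocyte cytoskeleton list, at 1.64% against at most 0.589%. On the other 6 lists it lay inside the range of the 37: class I and proteasome genes took 0.659% against up to 0.662%, complement 0.371% against up to 0.722%, lysosomal genes 0.849% against up to 1.88%, receptors 0.330% against up to 0.344%, transcription factors 0.616% against up to 2.04%, and effector genes 1.04% against up to 1.51%.

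The complement component C1q is made by macrophages and tags debris for uptake. c1qb stood at 1245 CPM and c1qc at 1545 CPM in KP11, against at most 14.7 and 22.6 CPM, both in KP40. c1qa, the remaining chain, stood at 42.8 CPM, just under the 43.4 CPM of KP40. The chains were thus read very unequally in KP11. cfp, properdin, stood at 865 CPM, below the 2032 CPM of KP18. Of 6 complement genes considered, 3 were higher in KP11, c1qb, c1qc and cfp, and 1 was lower.

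Some receptor genes were hardly read in the 37. mrc1b, named for a mannose receptor, stood at 1808 CPM in KP11, against at most 2.18 CPM in the 37. csf2rb, a cytokine receptor subunit, stood at 986 CPM, against at most 0.686 CPM, and ptprc, the pan-leukocyte phosphatase CD45, at 265 CPM, against at most 2.11 CPM. havcr1 stood at 147 CPM, and tlr8b, a receptor for RNA in endosomes, at 76.6 CPM, under the fold for a call. Of 24 receptor and signalling genes considered, 4 were higher and 1, il13ra1, was lower, the latter not above the 5.89% over all genes. Among transcription factors, spi1a, a copy of the myeloid factor PU.1, stood at 316 CPM, against at most 215 CPM. Of 24 myeloid factors considered, 2 were higher and 9 were lower. Among the latter, IRF8, a factor of macrophage development, had no read in KP11 against a mean of 118 CPM in the 37, and CEBPA, a myeloid factor, had 0.302 CPM against 391 CPM. RUNX3, placed on the lymphocyte list, stood at 916 CPM in KP11 against at most 0.744 CPM, while cd79a, PAX5, ighm, ZAP70, cd8a and il7r were at 0.

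Lysosomal genes were represented by PSAP, the precursor of the saposins, at 4019 CPM, GM2A, a ganglioside activator, at 1571 CPM, and grna, a granulin, at 420 CPM. GM2A did not pass 26.2 CPM in the 37 and PSAP reached 2862 CPM there, in KP20. Of 27 lysosomal genes and proteases considered, 3 were higher and 3 were lower, and CTSB at 1013 CPM and cd68 at 39.5 CPM were inside the range of the 37. ASAH1, acid ceramidase of the lysosome, was among the 20 leading genes with a symbol at 2741 CPM, against at most 144 CPM. Of 30 effector genes considered, 4 were higher and 7 were lower, the latter being 2 genes named MMP14, s100a10b, sgk1, HMOX1, ARG2 and ccl25b. The higher ones were lygl1, a lysozyme gene, at 429 CPM, the galectin lgals9l1 at 736 CPM, the chemokine ccl35.2 at 308 CPM and the cholesterol exporter ABCA1 at 516 CPM.

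The leukocyte cytoskeleton list had 6 of 30 genes higher: pfn1, ARPC1B, COTL1, ARHGDIA, CAP1 and arhgdig. pfn1, the actin-binding profilin, stood at 3930 CPM, against at most 312 CPM, and COTL1, an actin-bundling protein, at 2732 CPM, against at most 74.6 CPM. CORO1C, a coronin, stood at 4048 CPM, against at most 1265 CPM. CORO1A, the leukocyte coronin, stood at 31.5 CPM, which was below the 255 CPM of KP40. rac2 stood at 91.8 CPM, above all 37 but short of the fold.

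**Figure D4:**
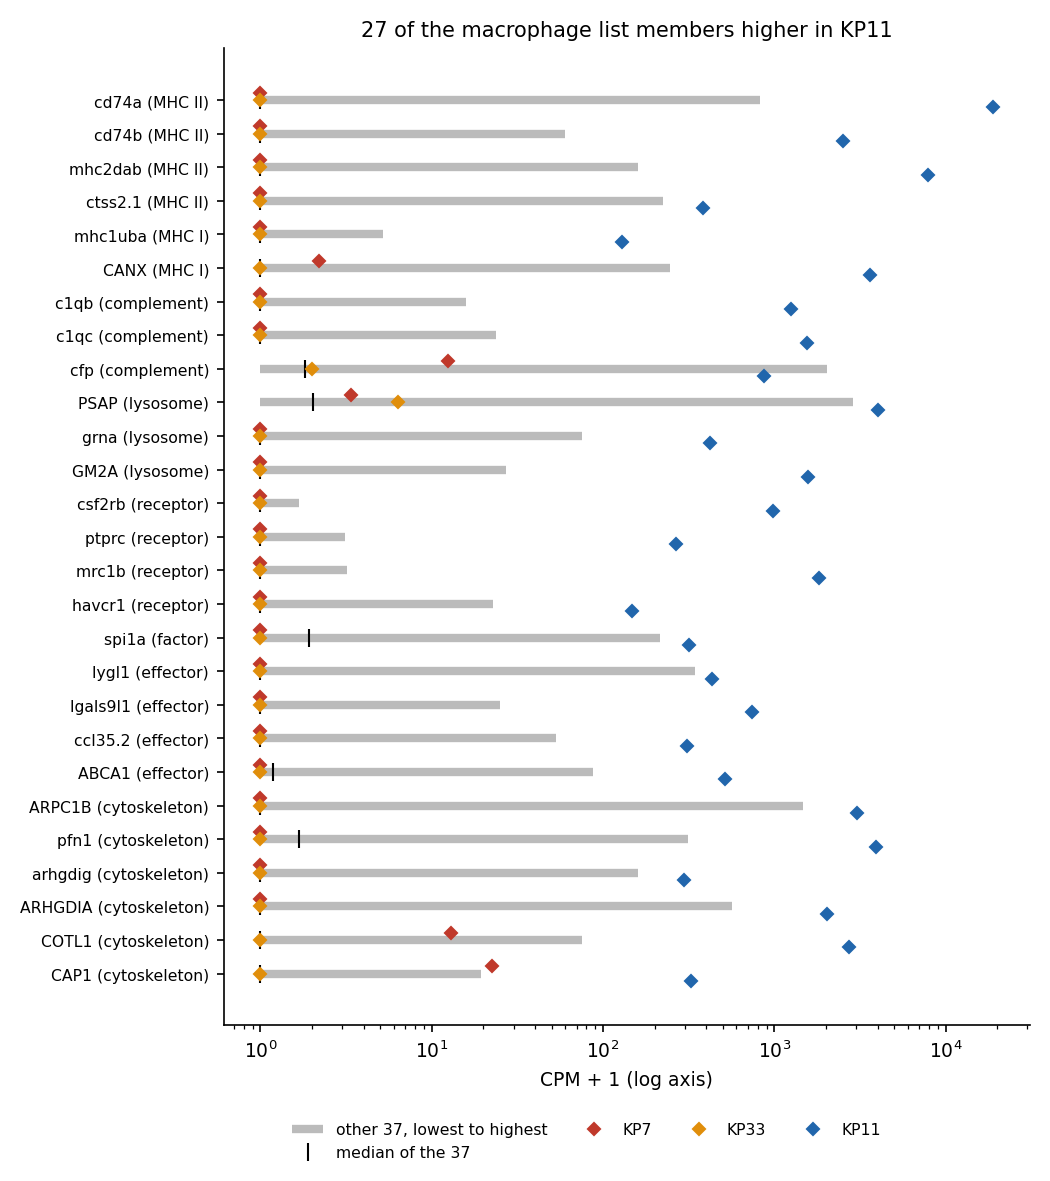
CPM + 1 on a log axis for 27 of the 28 members of the macrophage lists that were higher in KP11, grouped by role; diamonds are the 3 chosen cells, the grey bar runs from the lowest to the highest of the other 37 and the tick is their median. KP11 lies to the right of the bar for every gene plotted except cfp, where it lies inside it, and KP7 and KP33 lie at 0 for most.

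The remaining leading genes of KP11 are not specific to macrophages by their known roles. MAP3K7, a kinase of the NF-kB pathway, stood at 3909 CPM and traf3, an adaptor of the same signalling, at 2699 CPM, against at most 1414 and 71.3 CPM. GRB10 at 3780, STK3 at 2728, ZNF598 at 2977, hdac9b at 2873, rab1ba at 2832, PDCD4 at 2801 and PGM2L1 at 2729 CPM complete the first 20 with a symbol, all of which lay above every one of the 37. Single cells of the 37 came close for PGM2L1, with 2239 CPM in KP17, and STK3, with 2334 CPM in KP2.

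The highest gene of the 360 was no immune gene. hsp70l (ENSDARG00000055723), an inducible chaperone, stood at 86534 CPM in KP11, against 1.3997 to 81765 CPM with a median of 2185 in the 37. KP4, at the top of that range, was close to KP11, and KP7 and KP33 were at 2.36 and 3.27 CPM. The heat shock and chaperone list as a whole took 23.6% of the reads of KP11, above all 37, of which KP4 had 22.04% and KP8 had 18.3%. The copies hsp70.1, hsp70.3 and HSPA2 stood at 41843, 28908 and 43903 CPM, each inside the range of the 37, and reads of these near-identical copies are divided by an estimate. Summed over the 4 hsp70 copies, KP11 had 20.1% of reads and KP4 had 21.1%. HSP90B1, a chaperone of the endoplasmic reticulum, stood at 3696 CPM, against at most 502 CPM, and dnaja1 and HSPD1 were higher too. In all, 4 of 26 list members were higher and 1, BAG3, was lower, the latter not above the 5.89% over all genes. On median-of-ratios scaling 2 were higher and 35 of the 37 had a smaller summed list than KP11.

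Immediate early genes in KP11 took 1.42% of reads, between KP7 or KP33 and the median of the 37. The list split by gene. egr1 stood at 316 CPM, JUN at 12.1 CPM, JUNB at 7.24 CPM and MYC at 4.52 CPM, against medians of 3626, 3792, 5001 and 1822 CPM in the 37. NR4A1, by contrast, stood at 4991 CPM, against a median of 23.8 CPM. FOS, which is not on the matched list, stood at 4002 CPM, below its median of 27431 CPM. Of 40 members, 21 were lower and none higher, and on median-of-ratios scaling 9 were lower. Also among the first 10 lower genes with a symbol were the matrix genes FN1 ENSDARG00000006526 at 6.63 CPM and DCN at 4.22 CPM, with medians of 3433 and 3478 CPM, the keratin krt8 at 98.3 CPM, PMP22, the complement gene c6.2 and the tissue factor copy f3b. ENSDARG00000088371, which has no symbol and is outside that ranking, stood at 22.01 CPM, against a median of 8988 CPM. The FN1 and DCN values lay within the range of the 37, whose lowest cells had 5.09 and 1.45 CPM. In KP11, 10 genes lay below every one of the 37 (0.066%), among them tcf21, MYC, JUNB and the collagen gene col1a1a, which had 0.603 CPM against a median of 611 CPM. On the fibroblast and matrix list 19 of 29 were lower and on the longer epicardial list 15 of 25, and on median-of-ratios scaling these counts were 14 and 7.

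**Figure D5:**
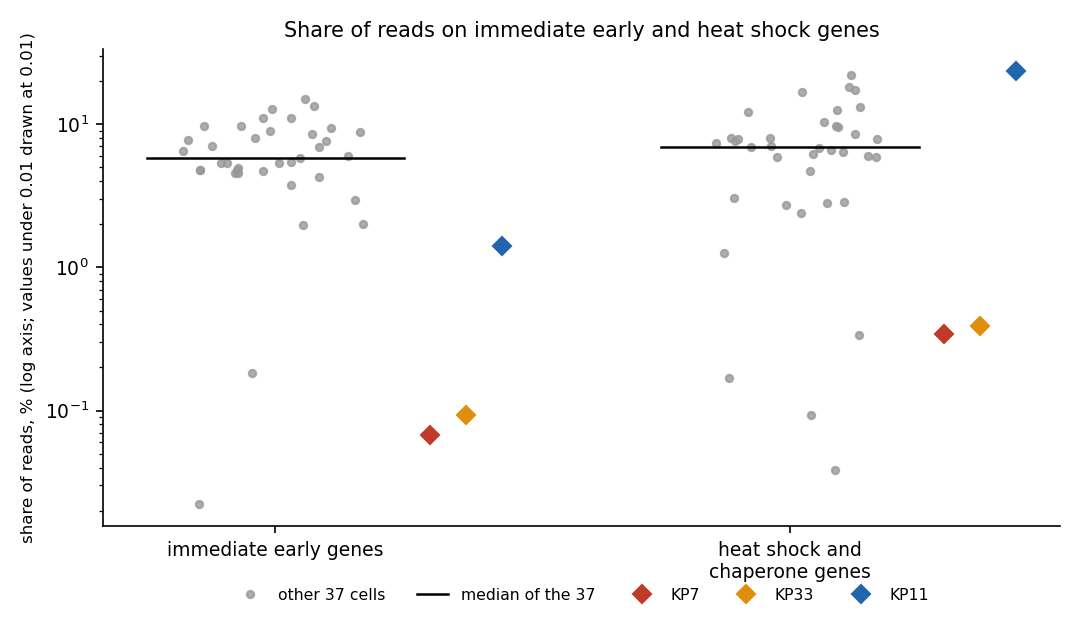
Share of reads, in % on a log axis, on immediate early genes and on heat shock and chaperone genes in each of the 40 cells; grey points are the other 37 cells, the bar is their median and diamonds are the 3 chosen cells. KP7 and KP33 lie low on both lists, above KP1 alone on the first, and KP11 lies above all 37 on the second at 23.6%.

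The lower genes of the muscle cells and of KP11 overlapped, 728 genes being lower in both sets, which is 72.3% of the genes lower in KP7 and KP33 and 81.6% of those lower in KP11. Over all genes considered, 6.65% were lower in KP7 and KP33 and 5.89% in KP11. Both sets were compared with the same 37 cells, so they share their reference. A gene could be called lower only if its mean in the 37 was well above the added 10 CPM. Both sets were thus drawn from the same abundant genes, and the overlap does not show a likeness of the cells.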

How the data were processed

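The authors deposited expected counts, that is, estimated reads per gene that need not be whole, for 40 cells. Bowtie2, RSEM 1.2.12 and the build Zv9 are named in the submitters' processing notes, without their settings. Reads of near-identical copies are divided by estimate, and reads are not independent molecules, so intervals cover counting error only.

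From these counts, CPM was computed over each column total and compared as ratios of CPM + 10, with a threshold of 10-fold, over 15147 of 33737 genes with at least 5 reads in a cell. No count model was run, since no animal is named and the cells count as 1 sample. No doublet caller was run. Depth ran from 340293 to 5.70e+06 reads per cell. Gene symbols, present for 65.0% of genes, come from a supplied name table; of 979 distinct list symbols, 302 matched exactly, 297 ignoring case and 188 without the copy letter, and 192 were not matched and are not analysed here. Matching without the copy letter can reach another gene. The members, lists and rules were chosen with earlier results of these data known. Named are list members and, among genes with a symbol, the 20 leading higher and 10 leading lower genes and the 10 largest differences between KP7 and KP33. The alternatives were another pseudocount, fold, scaling, reference or filter, and leaving out KP7 or KP33. The gene-by-gene step was tested on simulated versions of KP7 and KP33 with Poisson counting error only. Those lacked the spread between real cells, so the test does not show how the calls behave in these data. Values were computed with Python 3.11.15, numpy 2.4.6, pandas 2.3.3 and scipy 1.17.1. Results on some genes are not reported here.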

Additional observations from a re-analysis of the deposited data

How the results depend on the processing

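The count of genes higher in KP7 and KP33 stayed within 1.5 times of 32 under the other pseudocount, fold, reference, filter and total settings tried. It was 82 on median-of-ratios scaling, and 130 to 136 with 1 of the pair left out (136 without KP7, 130 without KP33), since a gene then had to pass in 1 cell. The count in KP11, 360, stayed within 1.5 times throughout, at 272 to 521. Counts of lower genes depended on the settings: for KP7 and KP33, 1007 became 4551 with a pseudocount of 1 CPM, 2156 at 5-fold, 77 on median-of-ratios scaling and 5 beyond every one of the 37, and for KP11, 892 became 4317, 1962, 174 and 10. Taking CPM over reads outside the higher genes, a setting chosen after seeing the data, gave 39 higher and 914 lower in KP7 and KP33, and 472 and 878 in KP11. No cell had 0 tcf21 reads, and 4 cells lay under 10 CPM, KP1 being the fourth. The cardiomyocyte share in KP7 was 14.6% on 3 markers, 18.7% of reads without mitochondrial genes and ENSDARG00000080337, and 17.5% without matches that drop the copy letter; in KP33 these were 14.8%, 20.5% and 16.8%. The macrophage share in KP11 was 2.80% on 3 markers and 3.49% without the mitochondrial reads. The fibroblast share without such matches was 0.00881% in KP7, 0.0148% in KP33 and 0.00118% in KP11, and without the mitochondrial reads 0.0271% in KP33. Pearson's r of KP7 with KP33 was 0.31, against a Spearman's rho of 0.146. The cause of these shifts was not tested. With 3 cells and no animal named, nothing here can be extended to fish. No paired analysis was possible because there is 1 group and no test.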
